A study of Mus musculus with 2 samples.

Results

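The cells described here are mouse muscle stem cells (MuSCs) that resemble quiescent cells and have no counted transcript of Myod1, the transcription factor that marks a MuSC leaving quiescence. They were selected on their measured counts in the short-read gene table of the 90% library. A barcode needed 3000 to 15000 unique molecular identifiers (UMIs, each standing for 1 captured transcript) and at least 500 genes, with 0 UMIs of the cell cycle genes Rrm2, Top2a, Cdk1 and Mki67 and of the immune genes Ptprc and Tyrobp. It also needed at least 1 UMI summed over Chrdl2, Calcr, Heyl, Spry1 and Msc, and 0 UMIs of Myod1. Of 3001 barcodes in the table, 1390 were in the UMI and gene range, 1234 of these had no cell cycle UMI, 1225 also had no immune UMI, and 1006 had a marker UMI. These 1006 barcodes are called the gate. Within the gate, 507 cells had 0 Myod1 UMIs (50.4%, exact binomial 95% interval 47.3 to 53.5%) and are called Myod1-0 cells. Another 67 had 1 Myod1 UMI and 432 had 2 or more. The 432 cells, called Myod1-positive cells, and 606 barcodes of at least 20000 UMIs, called deep barcodes, were the groups for comparison.

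The mice carried Pax7creERT2 and R26-eYFPfl/fl on a C57BL6 background, so that tamoxifen (100 uL at 20 mg/ml, given at 3 months of age) labelled cells in which Pax7 drives the Cre recombinase. Quiescent MuSCs came from uninjured hindlimb muscle, and activated MuSCs came from muscle 72 h after 40 uL of 1.2% barium chloride. Both were sorted on YFP, a gate that follows the Pax7 label and not the state of the cell, and entered the same 10x 3′ capture that was divided into a 10% and a 90% library. The tables carry no label of origin, so whether a cell came from injured or uninjured muscle is not known, and there is no replicate.

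A quiescent MuSC lies under the basal lamina of a muscle fibre, expresses Pax7 and is held out of the cell cycle by Notch and calcitonin receptor signalling. On injury it leaves this state, makes MyoD protein, enters the cell cycle, and its progeny either differentiate under Myog or return to quiescence. Dissociation of muscle into single cells takes hours, and MuSCs are known to switch on immediate-early genes during it. Both facts are background and were not measured here.

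The 507 Myod1-0 cells held 2619236 UMIs, with a median of 4731 per cell (range 3021 to 13546) and 1374 genes per cell. The Myod1-positive cells were almost as deep, with 2337472 UMIs and a median of 4855, whereas deep barcodes held 29875734 UMIs with a median of 47106. The median share of mitochondrial UMIs was 1.14%, 1.13% and 1.18%. Levels are counts summed over the cells of a group and given as CPM, the share of all UMIs of the group on a scale that is the same for every group, and intervals are exact Poisson or binomial 95% intervals that cover counting error only. Since a group is 1 set of cells from 1 capture, no test was run and no p-value is given. A gene was compared if its mean CPM over both groups was at least 20, and it is called higher or lower if the CPM ratio passed 2-fold. The 12 genes in the rule were left out of these counts.

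The libraries shared barcodes. The 10% and 90% tables had 634 barcodes in common, among them all 269 barcodes with at least 3000 UMIs in the 10% table. For 268 of the 269, the profile in the 90% table that correlated best was that of the same barcode (mean r over genes 0.930, against 0.678 for other barcodes). By the protocol, droplets were divided before pooling, so that each library should hold its own cells, and the shared barcodes go against this. Whether the tables count the same cells or the same molecules was not tested, and the 10% table was not used as a replicate. Of the Myod1-0 cells, 94 were also in the 10% table and 413 were not. The groups also stood apart by sex-linked transcripts, and the labels used here do not give the sex of the mice. Among Myod1-0 cells, 304 (60.0%, 55.5 to 64.3%) had a UMI of the Y-linked genes Ddx3y, Eif2s3y, Kdm5d or Uty and 22 (4.34%, 2.74 to 6.50%) had a UMI of Xist, the RNA of the inactive X chromosome. Among deep barcodes the order was the opposite, with a Y-linked UMI in 4.46% and a Xist UMI in 94.6%. With each cell thinned to 3000 UMIs, Xist was found in 3.32% of Myod1-0 cells and 65.7% of deep barcodes, and Y-linked genes in 47.8% and 0.408%. A difference between the gate and deep barcodes therefore cannot be told apart from a difference between animals. Myod1-positive cells resembled Myod1-0 cells in this respect (66.2% with a Y-linked UMI and 2.08% with a Xist UMI).

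**Figure D1:**
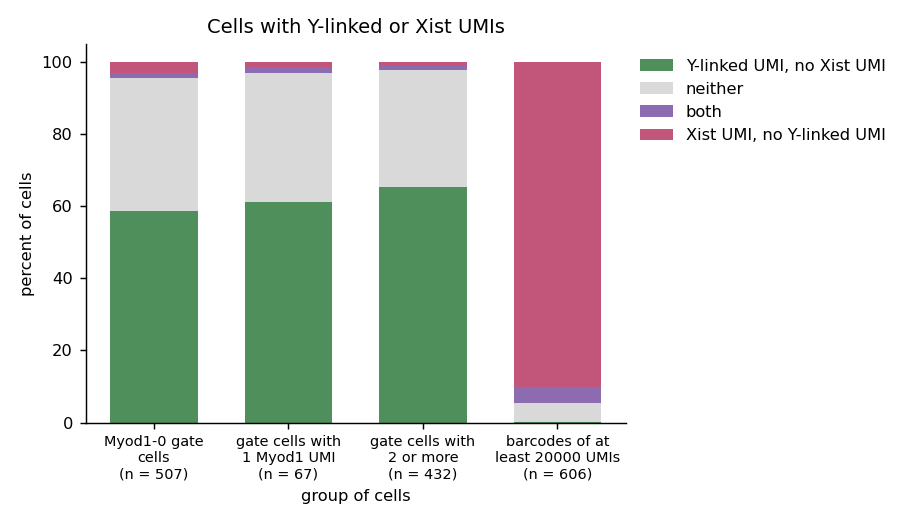
Percent of cells (vertical axis) with a UMI of a Y-linked gene, of Xist, of both or of neither, stacked for each of the 4 groups of cells on the horizontal axis. Y-linked UMIs prevail in the 3 groups of the gate and Xist in the 606 deep barcodes, of which 547 had a Xist UMI and no Y-linked one.

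Cells with 0 Myod1 UMIs were found at every depth of the gate. Their share was 51.1% (46.8 to 55.3%) of 560 cells with 3000 to under 5000 UMIs, 50.7% (45.5 to 55.9%) of 371 cells with 5000 to under 8000 and 44.0% (32.5 to 55.9%) of 75 cells with 8000 to 15000, and these intervals overlap. The Myod1 counts of the gate were spread widely, with 104 cells at 2 to 4 UMIs, 138 at 5 to 11 and 190 at 12 or more. Among Myod1-positive cells the median was 10 and the highest 69. In 390 barcodes with under 500 UMIs, which hold few transcripts, Myod1 was at 172 CPM. All of the values for the gate come from the counts that the rule used, and describe the choice.

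**Figure D2:**
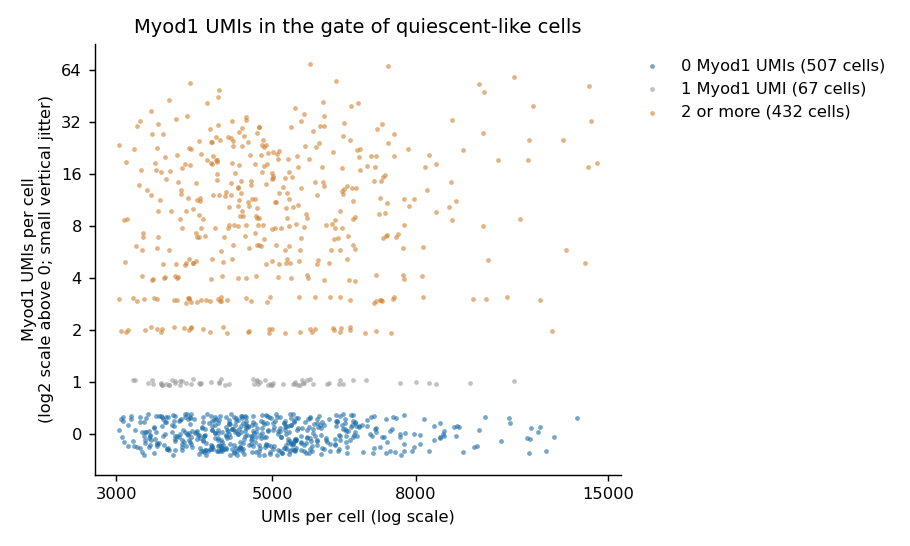
Myod1 UMIs per cell (vertical axis, log2 scale above 0, with a small jitter) against all UMIs per cell (horizontal axis, log scale) for the 1006 cells of the gate. The 507 cells at 0 extend over the whole range of depth and sit beside cells of the same depth with 16 or more Myod1 UMIs.

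Myod1 was also looked up under the same barcodes in the 10% table. The counts of both tables may hold the same molecules, so this lookup is a description and no independent count. In the 10% table, 57 Myod1-0 cells had at least 3000 UMIs, and 1 of them had a Myod1 UMI, a single one (1.75%, 0.0444 to 9.39%). All 65 Myod1-positive cells found there had Myod1, at 2187 CPM against 2.29 CPM. The highest count in a Myod1-0 cell was thus 1, and the median of the positive cells was 12. In 8 cells with exactly 1 Myod1 UMI in the 90% table, 7 had Myod1 again, at 170 CPM.

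Nanopore reads of the 10% library gave another count, and here Myod1 was not at 0. Of 55 cells that the same rule selected in the 10% table, 32 had a long-read UMI of Myod1 (58.2%, 44.1 to 71.3%). The level was 132 CPM, with a median of 1 and a maximum of 5 UMIs, and 20 of the 55 had 2 or more. Of the Myod1-0 cells of the 90% table, 75 had at least 1000 long-read UMIs. Among these 75, 45 had a long-read Myod1 UMI (60.0%, 48.0 to 71.1%) and 28 had 2 or more. Their level was 189 CPM, with a median of 1 and a maximum of 21 UMIs. In 63 cells of the 10% table with 2 or more short-read Myod1 UMIs, 62 had a long-read one, at 6770 CPM with a median of 42. As background, 774 of 1612 barcodes with under 500 short-read UMIs had a long-read Myod1 UMI (48.0%, 45.6 to 50.5%). Their median depth was 585 long-read UMIs, against 8567 in the 55 cells. The level in those barcodes was 1195 CPM, above that of the Myod1-0 cells, and deep barcodes were at 601 CPM. These groups differ in depth, and whether the long-read UMIs of the Myod1-0 cells are expression or free RNA was not tested.

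The 5 marker genes were detected unevenly. Chrdl2, a secreted antagonist of BMP, had a UMI in 267 of 507 Myod1-0 cells, and Heyl, a transcriptional repressor induced by Notch, in 266. Msc, a basic helix-loop-helix factor that opposes MyoD, was found in 241 cells, Spry1, an inhibitor of receptor tyrosine kinase signalling, in 167 and Calcr, the calcitonin receptor, in 88. Of the 507 cells, 172 carried 1 of the 5 markers, 199 carried 2, and 6 carried all 5. Msc reached 137 UMIs in 1 cell. In the 390 barcodes with under 500 UMIs, Msc was at 101 CPM and Chrdl2 at 10.1 CPM, against 855 and 277 CPM in Myod1-0 cells, and the part of free RNA in cells with few marker UMIs was not tested. These values chose the cells and are a description.

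Cells near the limits of the rule resembled one another in part. The 69 Myod1-0 cells with exactly 1 marker UMI had Gpx3 at 3043 CPM, Cebpd at 927 CPM and Egr1 at 745 CPM, against 3590, 1085 and 817 CPM in the 438 with 2 or more. S100a6, however, stood at 842 CPM in the former and 374 CPM in the latter. In 120 barcodes that met every other condition but had 0 marker UMIs, Gpx3 was at 2728 CPM and S100a6 at 1451 CPM. A Xist UMI was found in 6 of the 69 cells, 16 of the 438 and 15 of these 120. S100a6 was high in Myod1-0 cells with Xist, as given below, and the part of Xist cells in its difference by marker count was not tested. In 29 barcodes just under the UMI limit (2500 to under 3000 UMIs), Gpx3 was at 4281 CPM and S100a6 at 236 CPM, and in 51 just above it (3000 to under 3500), they were at 4079 and 238 CPM.

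Markers outside the rule are given as a description of the label. Of 13 quiescence genes, all were detected in Myod1-0 cells, but detection does not set these cells apart. A UMI of the list was found in 490 of 507 Myod1-0 cells, 420 of 432 Myod1-positive cells and 605 of 606 deep barcodes. Pax7, which specifies MuSCs, was at 22.5 CPM (17.1 to 29.1), with UMIs in 39 cells, and Cd34, a surface glycoprotein of quiescent MuSCs, at 27.5 CPM. Sdc4, a heparan sulfate co-receptor used to sort MuSCs, was far more abundant at 759 CPM. Markers of other cell types were low except for collagen and myofibre genes. Of 7 immune genes, 2 (Ptprc and Tyrobp) were set to 0 by the rule. Among all 7, 6 were at 0 UMIs and Lyz2 had 1 UMI. Of the endothelial list (Pecam1, Cdh5, Kdr, Emcn, Cldn5), Kdr was at 0 and the 28 UMIs of the others lay in 6 cells. Pdgfra and Lum, markers of fibro-adipogenic cells, were at 0, where 0 allows up to 3 UMIs over the group, but that list as a whole held 711 UMIs in 240 Myod1-0 cells (271 CPM, against 44.5 CPM in deep barcodes). Col3a1 gave 656 of them, Ly6a 34 and Dcn 21. Schwann, mural, tenocyte and red cell lists held 2, 8, 7 and 1 UMIs in all. The myofibre list held 151 UMIs in 73 cells (57.7 CPM), a level to be set beside 94.1 CPM in Myod1-positive cells.

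Myod1-0 and Myod1-positive cells were alike in nearly all genes. Of 4084 genes compared, 25 were called higher (0.612%) and 8 lower (0.196%) in Myod1-0 cells. The CPM ratio was within 1.5-fold for 94.4% of the genes, and its median was -0.05 on the log2 scale. Across genes, log2 CPM correlated with r = 0.983, a description over genes that share cells and depth. Against deep barcodes, 766 of 4364 genes were higher (17.6%) and 1281 lower (29.4%), with a median log2 ratio of -0.24 and r = 0.622. Scaling by the median ratio, which shifts every gene up by 0.24 on the log2 scale, gave 919 higher and 1040 lower genes.

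**Figure D3:**
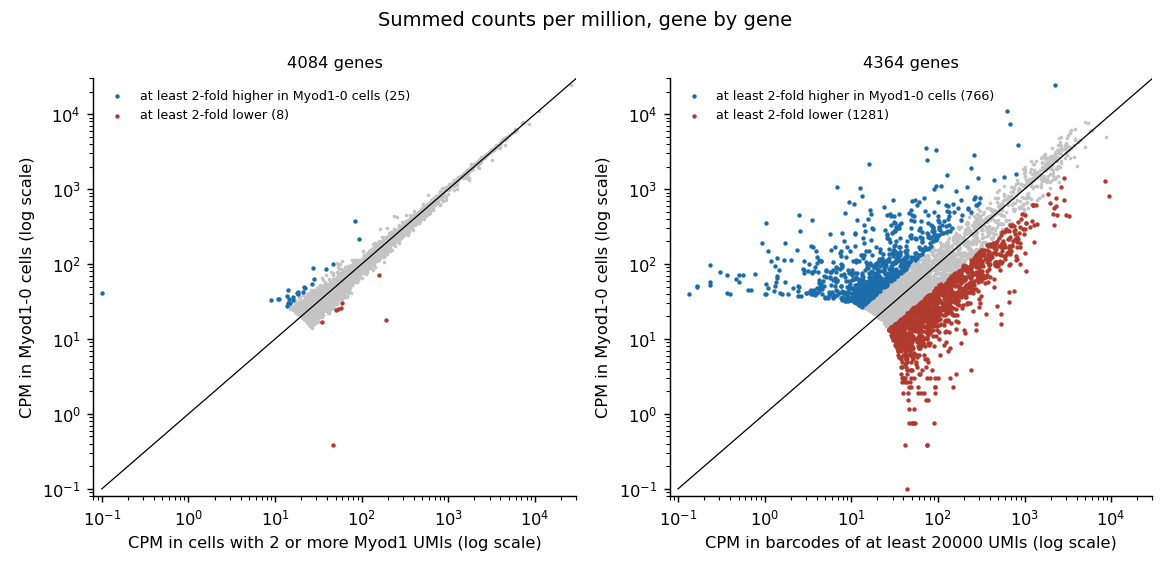
Summed CPM of each gene in Myod1-0 cells (vertical axis, log scale) against Myod1-positive cells (left) and deep barcodes (right; horizontal axes, log scale), with genes at 0 drawn at 0.1. Points hug the diagonal on the left, where 25 and 8 genes passed 2-fold, and spread widely on the right, where 766 and 1281 did.

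Several of the 33 genes called within the gate rested on few cells. Fabp4, a fatty acid carrier abundant in capillary endothelium, had 109 UMIs in Myod1-0 cells and 0 in Myod1-positive cells (at least 32.4-fold higher against a floor of 3 UMIs over the group). Those 109 UMIs came from 3 cells, and without the 6 cells that had an endothelial UMI the level was 3.87 instead of 41.6 CPM. Myog, which drives differentiation, had 1 UMI against 108, the latter in 8 cells and 70 of them in 1 cell. This is 0.382 against 46.2 CPM, and the counting interval of the ratio ran from 0.000207 to 0.0470. Cdkn1c, a cyclin-dependent kinase inhibitor, was at 17.9 CPM against 193 CPM, with 147 of its 452 UMIs in a single Myod1-positive cell. Ifi27l2a, an interferon-induced gene, lay in 9 and 5 cells.

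Cells with a Xist UMI carried another part of these differences. Of the 22 Myod1-0 cells with Xist, 6 also had a Y-linked UMI. The 22 held 165167 UMIs and the 485 others 2454069, so depth differed too. In the barcodes with under 500 UMIs, Xist was at 242 CPM and Ddx3y at 0 CPM, and the part of free RNA in the 22 cells was not tested. The 22 Myod1-0 cells with Xist had S100a6, a calcium-binding protein, at 2809 CPM (2559 to 3077) against 273 CPM (252 to 294) in the 485 others. Tubb5, a beta-tubulin, was at 418 against 79.5 CPM, Lgals3 at 297 against 13.4 CPM, and Timp1, an inhibitor of matrix metalloproteinases, at 297 against 22.0 CPM. Conversely, Cebpd was at 297 against 1117 CPM and Msc at 206 against 899 CPM. In deep barcodes S100a6 was at 3254 CPM and Cebpd at 6.93 CPM. Leaving out all Xist cells of the gate changed the ratio of Mest, an imprinted gene, from 3.21 to 1.06, that of S100a6 from 1.85 to 1.23 and that of Tubb5 from 2.18 to 1.72. The count of higher genes was then 20 and that of lower genes 13.

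Of the 25 higher genes, 16 stayed past 2-fold when Xist cells, endothelial-UMI cells and the top cell of each gene were left out in turn. They included Ccl2, Hspa1a, Hspa1b, Cxcl10, Ddah2, Txnip, Lpl, Tsc22d1 and H1f0. Of the 8 lower genes, 5 stayed (Arl4c, Tuba1c, Csf1, Cdkn1c and Myog). By depth, 19 of the 25 and 4 of the 8 had a ratio on the same side of 1 in all 3 UMI strata.

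Ccl2 (chr11:82035571-82037453, GRCm38), a chemokine that draws monocytes, was the most abundant of the higher genes on the same side in all strata. It was at 219 CPM (202 to 238) in Myod1-0 cells and 94.1 CPM (82.1 to 107) in Myod1-positive cells, a ratio of 2.33 (1.99 to 2.73). The ratio was 0.73 on the log2 scale, below 2-fold, when cells with 1 Myod1 UMI joined the compared group, and 3.05 in the 10% library. From the shallowest to the deepest stratum, the levels were 251 against 133, 195 against 68.0 and 189 against 66.7 CPM. Its UMIs lay in 78 of 507 and 42 of 432 cells, with at most 44 in 1 Myod1-0 cell. Most cells of both groups had none, so the groups overlapped. Ddah2, which degrades asymmetric dimethylarginine, showed a more even difference, with UMIs in 134 and 63 cells and at most 5 and 8 in 1 cell. It was at 86.3 against 38.5 CPM (ratio 2.24, 1.75 to 2.89). The ratio stayed past 2-fold without Xist cells (2.19), but its log2 value of 1.16 became 0.75 at a UMI minimum of 5000 and 0.62 in the 10% library, both below 2-fold. Txnip, an inhibitor of thioredoxin and of glucose uptake, was at 40.9 against 18.0 CPM. Lpl, lipoprotein lipase, was at 36.3 against 16.3 CPM.

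Other genes named by the ratio rule were below 2-fold. Tagln, an actin-binding protein, was at 103 against 52.2 CPM (1.98, 1.60 to 2.48) and Igfbp7, a secreted IGF-binding protein, at 111 against 59.0 CPM (1.89). Fos was at 290 against 163 CPM (1.77, 1.57 to 2.01), but 150 of its 759 UMIs were in 1 cell, and the direction turned in the 10% library (log2 ratio -0.54, from 0.83). Ccl19 and the gene ENSMUSG00000094661 had ratios of 1.77 and 1.81. On the lower side, Riok3, an atypical kinase, was at 41.6 against 75.7 CPM (0.550, 0.429 to 0.702), Spry2 at 106 against 181 CPM (0.587) and Hbegf, a ligand of the EGF receptor, at 82.5 against 136 CPM (0.606). Other lower genes, Phf10, Ankrd10, Gemin7, Slc39a1, Chac1 and Arrdc3, had ratios between 0.600 and 0.647. Without Xist cells, the ratios of Riok3, Spry2 and Hbegf were 0.572, 0.593 and 0.620. With barcodes shared by both libraries alone, the log2 ratio was -0.06 for Spry2 (from -0.77) and -1.34 for Hbegf (from -0.72).

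Heat shock genes were compared in full, and 2 of 11 were called higher in Myod1-0 than in Myod1-positive cells, beside 0.612% of all genes. The median ratio of the list was 1.08. Hspa1a and Hspa1b encode the inducible HSP70, a chaperone made when proteins unfold. Hspa1a was at 374 CPM (351 to 398) against 83.0 CPM (71.7 to 95.5), a ratio of 4.51, and Hspa1b at 44.7 against 14.1 CPM, a ratio of 3.16. Only 83 of 507 Myod1-0 cells had a Hspa1a UMI, 253 of 980 UMIs were in 1 cell, and in the deepest stratum the order was reversed (152 against 169 CPM). Dnajb1, the HSP40 partner of HSP70, was at 299 against 198 CPM (1.51), whereas Hsp90ab1, Hspa8 and Dnaja1 were within 1.1-fold. Hspa1a and Hspa1b are near-identical copies whose reads may be assigned to either, so the split between them is uncertain. Their promoters are shown in place of those planned, of Hes1, Hey1 and Heyl, for which no window was available. The windows hold the 250 bases before the RefSeq start on GRCm38.p6, minus strand, at chr17:34972157-34972406 for Hspa1a and chr17:34959239-34959488 for Hspa1b, 5′ to 3′. Capitals mark the heat shock element letters.
Hspa1a: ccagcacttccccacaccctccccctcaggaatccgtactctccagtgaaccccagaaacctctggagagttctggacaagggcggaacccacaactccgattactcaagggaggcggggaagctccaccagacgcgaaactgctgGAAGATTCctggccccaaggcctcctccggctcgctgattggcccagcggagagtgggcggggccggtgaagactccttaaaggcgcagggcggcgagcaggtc
Hspa1b: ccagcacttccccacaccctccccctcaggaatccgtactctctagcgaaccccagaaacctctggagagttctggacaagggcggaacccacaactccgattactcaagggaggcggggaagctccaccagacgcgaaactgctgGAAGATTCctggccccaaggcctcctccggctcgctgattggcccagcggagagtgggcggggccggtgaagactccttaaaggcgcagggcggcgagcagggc
The windows were the same at 247 of 250 bases. Each held 1 match to the letters searched, GAANNTTC or TTCNNGAA (each reads the same on both strands), from 104 to 97 bases before the start. Of 8 heat shock genes with a window in the table, 7 had a match, as did 12.8% of all 32851 windows of this length. The letters were chosen after the values were seen, and a match is a description and not a site.

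Quiescence genes that the rule did not use differed little by Myod1. Of 12 compared within the gate, 1 was higher and 1 was lower, beside 0.612% and 0.196% of all genes. The median ratio was 1.25, with 7 of the 12 above 1. The summed level of the 13 genes went the other way. It was 1258 CPM (1215 to 1301) in Myod1-0 cells and 1460 CPM (1412 to 1510) in Myod1-positive cells, with medians over cells of 997 and 1077 CPM. Cd34 was the higher one, at 27.5 CPM (21.5 to 34.6) against 13.7 CPM (9.36 to 19.3), a ratio of 2.01 (1.31 to 3.15), with UMIs in 51 and 28 cells. Cd34 is also made by endothelium, and without the cells that had an endothelial UMI its ratio was 1.89, below 2-fold. In the shallowest stratum it was at 24.0 against 20.1 CPM and in the deepest at 36.6 against 5.13 CPM. Cdkn1c was the lower one and rested on few cells, as given above. Gas1, a membrane protein that holds cells out of the cycle, was at 92.0 against 64.6 CPM, Pax7 at 22.5 against 18.4 CPM and Col15a1, a basement membrane collagen, at 32.1 against 22.3 CPM. Vcam1, an adhesion molecule, went the other way at 122 against 150 CPM. Against deep barcodes, 5 of 8 were higher and none was lower, beside 17.6% and 29.4% of all genes, and the median ratio was 2.14. Sdc4 was 10.9-fold higher (759 against 69.4 CPM), and Itga7, the laminin receptor of MuSCs, was at 33.2 against 64.7 CPM. Tgfbr3 and Col15a1, with too few UMIs in deep barcodes for the CPM minimum, were at 26.3 against 1.00 CPM and 32.1 against 0.134 CPM.

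Myogenic factors other than Myod1 were at similar levels in both parts of the gate. Of 12 compared, 0 were higher and 1, Myog, was lower, beside 0.612% and 0.196% of all genes, with a median ratio of 1.03. Myf5, which with Pax7 marks the myogenic lineage, was at 331 CPM (309 to 354) in Myod1-0 and 273 CPM (252 to 295) in Myod1-positive cells, a ratio of 1.21 (1.10 to 1.35), and at 35.8 CPM in deep barcodes. Id3, an inhibitor of basic helix-loop-helix factors, was at 1071, 1025 and 217 CPM. Of 9 compared with deep barcodes, 3 were higher (Myf5, Id3 and Tcf4) and Myog was lower, beside 17.6% and 29.4% of all genes. Pax7 and Eya1 fell below the CPM minimum there, with Pax7 at 22.5 against 7.80 CPM.

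Notch genes were split evenly within the gate. Of 6 compared, 0 were higher or lower by 2-fold, and 3 had a ratio above 1. Notch3 was at 43.9 CPM (36.2 to 52.7) against 31.2 CPM (24.5 to 39.3), a ratio of 1.41 (1.04 to 1.91). Among the targets, Hes1 was at 73.7 against 57.3 CPM (1.29, 1.03 to 1.61) and Hey1 at 28.3 against 18.4 CPM (1.54, 1.04 to 2.29). Hes1 and Hey1 were each found in few cells, 90 and 40 of 507, and at most 17 and 14 UMIs lay in 1 cell. Heyl, a target used by the rule, was at 187 and 192 CPM. The receptor Notch2 and the ligand Jag1 had ratios of 0.813 and 0.947, and Rbpj, the DNA-binding partner of all Notch receptors, one of 0.892. Against deep barcodes, 3 of 4 were higher (Notch2, Notch3 and Hes1), beside 17.6% of all genes, and Rbpj had a ratio of 1.40.

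Immediate-early genes were abundant in Myod1-0 cells and Myod1-positive cells alike, as counted by calls. Of 24 compared within the gate, 0 were higher or lower, with ratios of 0.802 to 1.77 and a median of 1.05. Against deep barcodes, 22 of 23 were higher, beside 17.6% of all genes, and the median ratio was 10.8. Egr1, a zinc finger factor induced within minutes, was at 808 CPM in Myod1-0 cells, 823 CPM in Myod1-positive cells and 13.4 CPM in deep barcodes. Junb, an AP-1 subunit, was at 1111, 1023 and 109 CPM, and Cebpd at 1065, 951 and 6.93 CPM. Jun, the remaining gene compared, was at 230 against 148 CPM in deep barcodes. The summed level of the list over Myod1-0 cells had quartiles of 4978 and 10708 CPM around a median of 7438 CPM, and the highest cell reached 50408 CPM. In deep barcodes the quartiles were 406 and 1388 CPM, below those of Myod1-0 cells. Among the 20 genes of the list with a promoter window, Btg2, Dusp1 and Maff held TGACGTCA, the palindrome (the same on both strands) of the cAMP response element in a 250-base window, as did 1.55% of all 32851 windows. Btg2, an antiproliferative factor, was at 263, 250 and 11.1 CPM, and Dusp1, a phosphatase of MAP kinases, at 191, 144 and 14.2 CPM. The windows of these 2 are shown because both genes were over 10-fold higher than in deep barcodes, with the element in capitals, minus strand, at chr1:134079156-134079405 for Btg2 and chr17:26508473-26508722 for Dusp1 (GRCm38.p6).
Btg2: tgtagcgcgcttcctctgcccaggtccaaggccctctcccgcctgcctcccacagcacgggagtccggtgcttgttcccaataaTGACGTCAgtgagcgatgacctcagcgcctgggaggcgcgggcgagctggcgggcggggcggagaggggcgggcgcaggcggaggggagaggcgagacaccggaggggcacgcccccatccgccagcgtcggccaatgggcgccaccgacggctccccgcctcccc
Dusp1: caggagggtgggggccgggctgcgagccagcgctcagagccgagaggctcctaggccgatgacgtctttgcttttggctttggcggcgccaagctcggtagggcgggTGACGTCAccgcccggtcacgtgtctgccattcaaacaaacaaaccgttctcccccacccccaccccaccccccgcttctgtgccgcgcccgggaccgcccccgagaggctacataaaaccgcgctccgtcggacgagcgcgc
The element lies 166 to 159 bases before the start of Btg2 and 143 to 136 bases before that of Dusp1. These letters were also chosen after the values were seen.

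Chemokines and cytokines were uneven from cell to cell. Of 8 compared within the gate, 2 were higher (Ccl2 and Cxcl10) and 1 was lower (Csf1), beside 0.612% and 0.196% of all genes. Cxcl1, which attracts neutrophils, was at 3317 CPM in Myod1-0 cells and 3141 CPM in Myod1-positive cells, with UMIs in 311 of 507 and up to 219 in 1 cell. Cxcl2 was at 680 and 717 CPM but in only 90 and 85 cells, 1 of which held 267 UMIs. The summed level had a lower quartile of 0, a median of 941 and an upper quartile of 5535 CPM over Myod1-0 cells, and a maximum of 85062 CPM. Cxcl10, induced by interferon, was at 33.6 against 8.98 CPM with 30 of its 88 UMIs in 1 cell, and its ratio of 3.74 became 2.20 without Xist cells. Csf1, the growth factor of macrophages, was at 24.8 against 52.6 CPM (0.472, 0.344 to 0.642). Against deep barcodes, 5 of 6 were higher and Csf1 was lower, beside 17.6% and 29.4% of all genes. Cxcl1 was at 94.3 CPM and Cxcl2 at 9.31 CPM there.

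Growth factor receptors and their inhibitors showed 0 calls among 8 compared within the gate. Errfi1, which blocks EGF receptor signalling, was at 2472 CPM against 3185 CPM (0.776, 0.751 to 0.803), and Spry2 had the lowest ratio of the list. Fgfr1 was at 440 against 548 CPM. Against deep barcodes, 5 of 6 were higher, beside 17.6% of all genes, Errfi1 by 32.8-fold and Fgfr1 by 14.1-fold. Met, the receptor for hepatocyte growth factor, was at 26.0 against 44.9 CPM.

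Matrix genes leaned to Myod1-0 cells, with a ratio above 1 for 8 of 10 compared, a median ratio of 1.31 and 0 calls. The median of all genes was close to 1. Col6a1, a collagen that forms microfibrils, was at 40.9 against 30.0 CPM and Igfbp5, which binds IGF in the matrix, at 86.3 against 57.8 CPM (1.49, 1.20 to 1.86). Col4a1, a basement membrane collagen, was at 113 and 114 CPM. Col1a2, below the CPM minimum, was at 16.8 against 3.42 CPM, and its ratio of 4.91 was 1.85 without Xist cells. Against deep barcodes, 7 of 10 were higher and 2 lower, beside 17.6% and 29.4% of all genes. Col4a1 was 67.5-fold higher at 113 against 1.67 CPM, and Gpc1, a glypican, was lower at 10.3 against 59.2 CPM.

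Genes of ribosome biogenesis leaned the other way within the gate. All 12 compared had a ratio below 1 (median 0.850), and 11 of the 12 were also below the median of all genes. Nhp2, of the H/ACA ribonucleoprotein, was at 131 against 171 CPM (0.765, 0.660 to 0.886), Ncl, nucleolin, at 354 against 458 CPM (0.774) and Ddx21 at 131 against 167 CPM (0.783). None passed 2-fold. Against deep barcodes, 4 of 13 were lower and 1 higher, beside 29.4% and 17.6% of all genes, with Npm1 at 564 against 2170 CPM. The ribosomal proteins themselves were level, with 0 of 80 called and a median ratio of 1.04 within the gate, and 3 of 80 lower against deep barcodes.

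Cell cycle genes were low in both parts of the gate, and 4 of them were set to 0 by the rule. Of 6 inhibitors and cyclins compared within the gate, 0 were higher and 1, Cdkn1c, was lower, beside 0.612% and 0.196% of all genes. Against deep barcodes, 3 of 8 were higher and 2 lower, beside 17.6% and 29.4% of all genes, so the lower count is near the background. Ccnd1, the cyclin of early G1, was at 28.6 CPM in Myod1-0 cells, 29.1 CPM in Myod1-positive cells and 197 CPM in deep barcodes. Pcna, the sliding clamp of DNA replication, was at 29.0, 34.2 and 114 CPM. All 9 replication and mitosis genes compared with deep barcodes were lower, beside 29.4% of all genes, with a median ratio of 0.0378. The rule removed barcodes with a UMI of 4 cell cycle genes from the gate and not from deep barcodes. The direction therefore describes the choice and is no separate result. The replication and mitosis list held 216 UMIs in all, in 147 of 507 Myod1-0 cells. Cdkn1a, the inhibitor p21, was at 1338, 1716 and 446 CPM, and Btg1, another antiproliferative gene, at 1565, 1647 and 126 CPM. Of the surface and adhesion list, 12 were compared within the gate, with 1 higher and 0 lower, beside 0.612% and 0.196% of all genes. The higher gene was Cd34 (not past 2-fold without endothelial-UMI cells), and the median ratio was 0.954. The interferon list had 2 genes that could be compared within the gate. Bst2, an interferon-induced protein that tethers virus particles, was at 63.0 against 28.2 CPM (2.23) and Ifitm3 at 626 against 506 CPM.

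**Figure D4:**
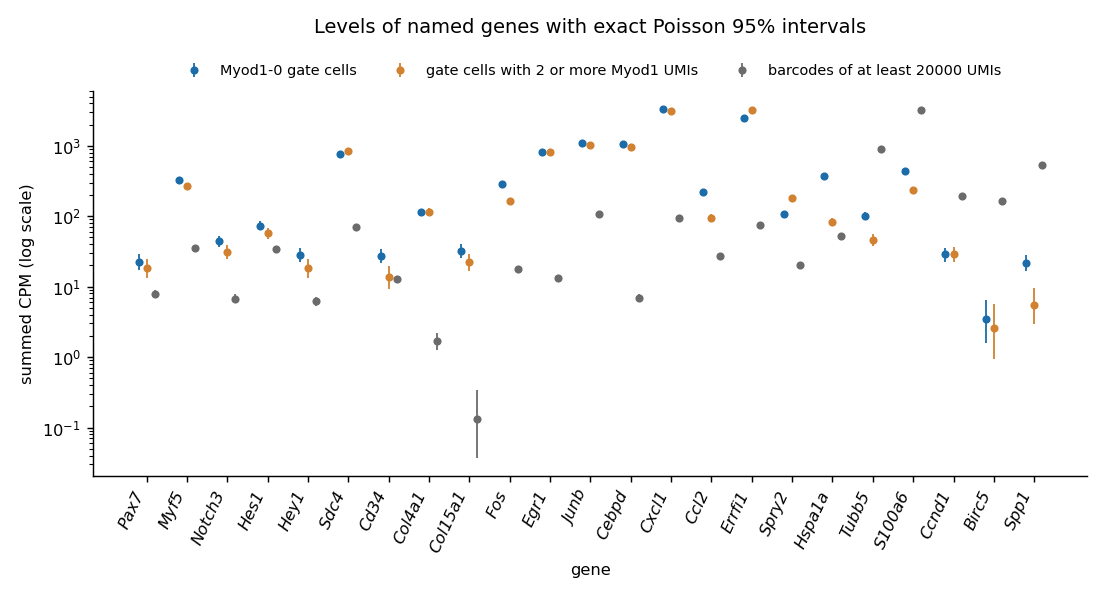
Summed CPM (vertical axis, log scale) of 23 named genes (horizontal axis) in Myod1-0 cells, Myod1-positive cells and deep barcodes, with exact Poisson 95% intervals as bars. The 2 sets of gate cells lie close together for most genes, while deep barcodes lie below them for Egr1 (13.4 CPM) and Cebpd (6.93 CPM) and above them for S100a6 (3254 CPM) and Spp1 (531 CPM).

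The genes that the ratio rule named for the largest ratios to deep barcodes were not cell cycle genes alone. On the higher side, Chodl, a membrane lectin, was at 449 against 2.48 CPM, with a UMI in 60.1% of Myod1-0 cells and 0.789% of deep barcodes after thinning to 3000 UMIs. Erfe, the hormone erythroferrone, was at 392 against 3.51 CPM, Medag at 279 against 2.54 CPM, Tnfaip6, a hyaluronan-binding protein, at 192 against 1.71 CPM and Fxyd1, a small membrane protein, at 150 against 1.10 CPM. Rarres2, the chemoattractant chemerin, and Gfpt2, an enzyme of hexosamine synthesis, had ratios of 95.2 and 89.0. Ddx3y, Y-linked, ranked among them at 193 against 0.937 CPM. Within the gate none of these except Tnfaip6 (192 against 268 CPM) had a ratio outside 0.837 to 1.39.

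On the lower side, Cenpa, a centromeric histone, was at 2.29 against 151 CPM (66.0-fold lower, 30.3 to 180), with 6 UMIs in Myod1-0 cells. Pclaf, Birc5, Ube2c, Spc24 and Dut, which act in replication or mitosis, were 21.4- to 63.3-fold lower. The cell cycle condition of the rule applied to the gate alone, so the ratios of Cenpa and of these genes describe the choice. Eno3, the muscle form of enolase, was at 15.7 against 536 CPM, Spp1, osteopontin, at 21.8 against 531 CPM and Lgals3, galectin-3, at 31.3 against 669 CPM. For Spp1 and Lgals3, 32 of 57 and 49 of 82 UMIs lay in the 22 Xist cells. Fabp5, a fatty acid carrier, was at 8.78 against 186 CPM. A non-coding and a metabolic transcript outside the ratio rule were chosen after their values were seen. Meg3, an imprinted long non-coding RNA, was at 2161 CPM in Myod1-0 cells, 1837 CPM in Myod1-positive cells and 15.9 CPM in deep barcodes. Gpx3, a secreted glutathione peroxidase, was at 3521, 3911 and 73.8 CPM.

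**Figure D5:**
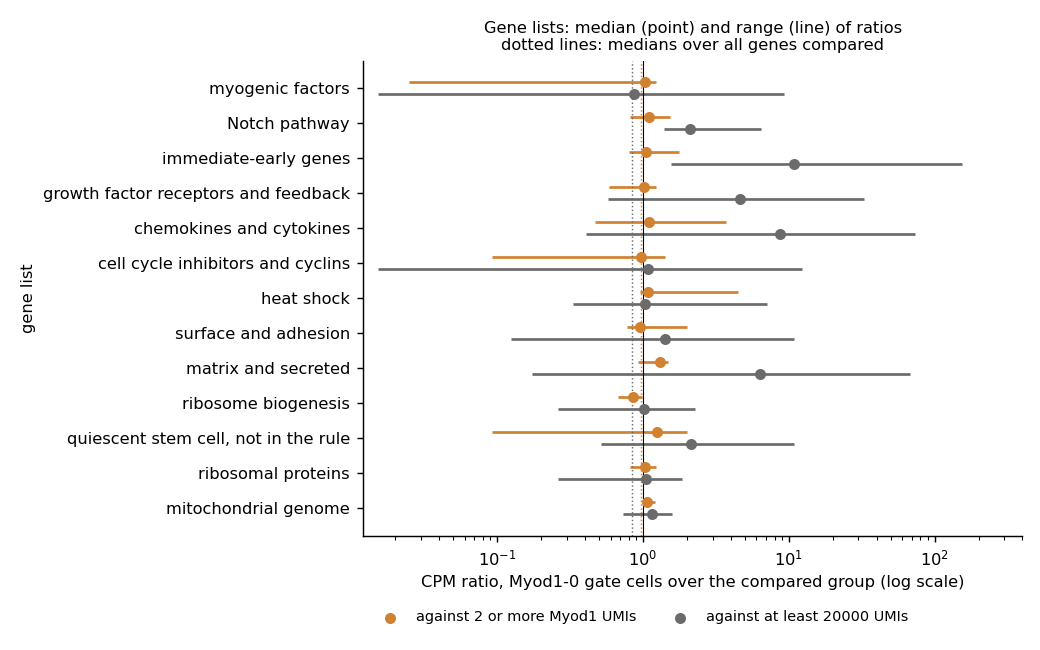
CPM ratio of Myod1-0 cells to Myod1-positive cells and to deep barcodes (horizontal axis, log scale). The median of each drawn gene list (vertical axis) is a point and its range a line. Lists with few compared genes are not drawn, such as interferon (median 1.66 within the gate) and replication and mitosis (0.0378 against deep barcodes). Drawn ratios within the gate have medians near 1, between 0.850 for ribosome biogenesis and 1.31 for matrix genes. Those against deep barcodes reach 10.8 for immediate-early genes.

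Among Myod1-0 cells, the programs varied with weak relations to one another. Over the 507 cells, which share library and depth limits, the Spearman coefficient between the summed immediate-early and chemokine levels was 0.258. It was 0.137 between immediate-early and heat shock levels and -0.0319 between immediate-early and matrix levels. The largest of the 21 coefficients, 0.324, was between matrix level and UMIs per cell, a measure of depth. These weak values are given as a description.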

How the data were processed

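Quiescent and activated MuSCs of 1 capture were measured as a 10% and a 90% library (6772259 and 39044129 UMIs over 1991 and 3001 barcodes). The authors made UMI counts per gene with scPipe and long-read UMI counts per isoform with FLAMES, and the counts were deposited without normalization. The submitters' processing notes name Cell Ranger 1.3, minimap2 2.17 and GRCm38.p6. Symbols were matched for 26939 of 26997 gene IDs in the 90% table, from Gencode vM21.

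The cells, gene lists and tests were chosen with earlier results of these data known. Counts were summed over cells and divided by all UMIs of the group, and long-read counts were summed over the isoforms of a gene. Genes with a mean of at least 20 CPM were compared. A group below 3 UMIs was set to that floor. Named genes were the listed genes and, per comparison, the 10 protein-coding genes with the largest ratio in each direction at a mean of at least 50 CPM, on 1 side of a ratio of 1 in all 3 UMI strata within the gate. Thinned shares are hypergeometric expectations at 3000 UMIs. Scrublet (scanpy 1.11.5) called 3 of 2326 barcodes doublets, too few for it to have worked, and these were kept. Promoter sequences are from RefSeq (GRCm38.p6). Windows of Hes1, Hey1 and Heyl were planned but not available, and those of Hspa1a, Hspa1b, Btg2 and Dusp1 were printed instead. The calculation was tested on simulated data. Python 3.11.15 and scipy 1.17.1 were used. Some genes that the rule named are not reported here.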

Additional observations from a re-analysis of the deposited data

How the results depend on the processing

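Counts of called genes are given as higher and lower, beside 25 and 8 within the gate and 766 and 1281 against deep barcodes. Within the gate, a mean CPM minimum of 5 gave 243 and 152, one of 50 gave 5 and 2, a fold of 1.5 gave 107 and 121 and a fold of 3 gave 7 and 2. With fewer UMIs summed, the counts grew: 41 and 42 for a UMI minimum of 5000 (221 Myod1-0 cells instead of 507), 196 and 224 for the gate in the 10% library, and 152 and 173 for the barcodes also in that library. Of the 25 and 8 genes, 13 and 3 were called again in the 10% library. Of the 55 Myod1-0 cells there, 50 had barcodes that were also Myod1-0 cells in the 90% library. These calls are therefore no independent repeat. Equal weights for the UMI strata gave 43 higher genes. The lower genes were 5 with scaling by the median ratio, with 1 or more Myod1 UMIs as the compared group and without the top cell of each gene, and 13 without Xist cells. Against deep barcodes, a mean CPM minimum of 5 gave 1640 and 2621, one of 50 gave 355 and 661, and a fold of 3 gave 495 and 758. The causes were not tested beyond the number of genes and cells each setting leaves. Other settings kept every count within 1.5 times: 17 to 32 and 6 to 12 within the gate, and 728 to 1093 and 1040 to 1755 against deep barcodes. Long-read Myod1 stayed at 57.4 to 60.0% of cells. For single genes and lists, 86 values moved beyond counting error, and 639 did not. The 639 include the ratios of named genes under the CPM minimum and fold settings. Those settings cannot change a ratio, so the 639 overstate how stable the values are. No ratio past 2-fold changed sign, and of the named ratios below it only that of Fos did, to -0.54 on the log2 scale in the 10% library. The settings without Xist cells, endothelial-UMI cells or top cells, with shared barcodes alone, and both other long-read settings were chosen after seeing the data. No paired analysis was possible because the groups are cells of 1 library without replicates. A count of 0 allows up to 3 UMIs over a group.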
